A study of Mus musculus with 81 samples.

Results

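Within Egr2KO microglia of cuprizone-fed mice, 3 CD11cpos libraries were set against 3 CD11cneg libraries, both sorted as CD229pos. These 6 libraries were chosen by their labels (genotype, diet and sort gate), and they are 6 of the 81 libraries of the series and 6 of the 23 in their count table. Egr2KO stands for Cx3cr1CreERT2/WT::Egr2fl/fl mice, in which a tamoxifen-inducible Cre expressed from the Cx3cr1 locus acts on floxed Egr2 in Cx3cr1-expressing cells. How Cre was induced was not given in the sources used here. The same step was measured in Cre mice, Cx3cr1CreERT2/WT animals with unfloxed Egr2, with 3 CD11cpos and 3 CD11cneg libraries. All mice of both genotypes were adult C57BL/6 males on 0.2% cuprizone for 6 weeks, and each library pooled the brains of 2 to 6 mice. Other libraries in the table were CD229neg cells on cuprizone and cells of mice at baseline, of both genotypes. Both genotypes carry the Cre allele. The study profiled sorted brain microglia of healthy and demyelinating mice.

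Cuprizone is a copper chelator that kills oligodendrocytes, and the myelin debris is taken up by microglia, the resident macrophages of the brain. A fraction of microglia in demyelinating tissue comes to display CD11c, the integrin alpha X chain encoded by Itgax. Such cells are known for high lipid-handling and lysosomal genes and for low levels of the genes of resting, homeostatic microglia. CD229, encoded by Ly9, is a receptor of the SLAM family. EGR2 is a zinc-finger transcription factor of the early growth response family, best known in nerve for driving myelin genes in Schwann cells and in macrophages for a part in alternative activation.

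Reads assigned to genes numbered 8501347, 9837987 and 11433616 in the Egr2KO CD11cpos libraries, against 6361212, 9205388 and 9746234 in the Egr2KO CD11cneg libraries, and lay between 4387075 and 13884739 over all 23 libraries. Levels are given as counts per 1000000 reads assigned to genes (CPM), on library sizes scaled by the TMM method, and differences as log2 fold changes of CD11cpos over CD11cneg with their standard errors. A gene is said to have risen or fallen where edgeR's quasi-likelihood test gave a Benjamini-Hochberg adjusted p under 0.05 over the 13187 genes tested. Nothing in the labels says that the pools were separate beyond their replicate numbers, so p-values measure the spread between these libraries. In bulk libraries, fewer cells of a type and less RNA per cell cannot be told apart. Microglial genes were high in all 6 libraries: Cx3cr1 lay between 1183 and 1730 CPM, Csf1r between 1770.4 and 2668 CPM, and P2ry12 between 457 and 1305 CPM. Among markers of other leukocytes, Cd3e and Cd3g of T cells, Nkg7 and Gzma of cytotoxic cells, Ly6g, S100a9 and Retnlg of neutrophils, and Ly6c2 and Chil3 of monocytes had no read in any of the 6. Other members of these lists did have reads. Neutrophil markers summed to 6.48 to 8.16 CPM in CD11cpos libraries and 5.63 to 6.71 CPM in CD11cneg libraries. Monocyte markers summed to 11.7 to 16.4 CPM in CD11cpos libraries and 14.7 to 22.0 CPM in CD11cneg libraries. Markers of endothelium and mural cells summed to 310.3 to 344 CPM in CD11cpos libraries and 217 to 289.5 CPM in CD11cneg libraries. Of these, Cldn5 and Vtn were at 0 throughout, and Rgs5 was at 0 in the CD11cneg libraries but not in all CD11cpos ones. Of the 4 members tested 1 fell and 0 rose. Oligodendrocyte markers summed to 211 to 223 CPM in CD11cpos libraries and 182 to 209.9 CPM in CD11cneg libraries, and neuronal markers to 3.15 to 3.84 CPM and 1.49 to 3.05 CPM. The part of these shifts in the results was not tested.

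Egr2 itself, the targeted gene, lies on chromosome 10 at 67537869 to 67542188 (mm10). Its level was 78.3, 77.2 and 87.5 CPM in CD11cpos libraries, against 22.4, 32.5 and 42.1 CPM in CD11cneg libraries. The CD11cpos libraries were all above the CD11cneg libraries, and Egr2 rose by 1.30 ± 0.20 on the log2 scale (adjusted p = 6.01e-05). In Cre mice Egr2 was at 119, 97.5 and 112 CPM in CD11cpos libraries, against 32.3, 57.1 and 60.4 CPM in CD11cneg libraries, a step of 1.12 ± 0.19. The Egr2KO step exceeded the Cre step by 0.18, with a 95% interval of -0.38 to 0.75. The counts are per gene and do not resolve the floxed exon, so they are no check of the deletion, and genotype here is what the labels state. Egr2 was lower outside the CD229pos gate, at 10.8 ± 0.882 CPM in Egr2KO CD229neg libraries (SD, n = 3) and at 4.33 and 2.71 CPM in the Egr2KO baseline libraries.

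The gates were visible in the transcripts. Itgax had 854, 713 and 714 CPM in CD11cpos libraries, against 119.5, 162 and 169 CPM in CD11cneg libraries. Its CD11cpos libraries were at more than 4 times every CD11cneg library, a step of 2.34 ± 0.21 that follows from the sort on its protein and is no finding. Ly9, whose protein both gates shared, had 367, 319.7 and 316 CPM in CD11cpos libraries, against 265, 262 and 262 CPM in CD11cneg libraries, and its step of 0.35 ± 0.15 did not pass (adjusted p = 0.158). Cx3cr1, the Cre driver locus, had a step of -0.24 ± 0.18, which did not pass either (adjusted p = 0.45).

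Across the transcriptome the CD11c step in Egr2KO microglia took in 1541 genes, 11.7% of those tested. Of these, 717 rose (5.44%) and 824 fell (6.25%), and 189 of the rises and 174 of the falls were at least 2-fold. In 1513 of the 1541 the 3 CD11cpos libraries did not overlap the 3 CD11cneg libraries, as was the case for 33.1% of all tested genes. The median log2 fold change was 0.55 in size among the genes that passed and -0.0034 over all genes tested. The titles of replicates 2 and 3 of both gates carry a PE150 tag that those of replicate 1 lack. Fitted on PE150 libraries alone, the step called 1013 genes, 925 of them among the 1541. In the replicate 1 pair taken alone, 1540 of the 1541 had the same sign. That pair is part of the 6 libraries that gave the calls. For the 1513 genes without overlap its sign was fixed in advance, so it is no separate check. Without CD11cpos replicate 3 the count was 947, and without CD11cpos replicate 1 it was 997.

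The 14 largest rises, by a rule given with the processing, included Itgax and ran from Atp6v0d2 to Creg2. Atp6v0d2, a subunit of the proton-pumping vacuolar ATPase best known in osteoclasts, led them. It was at 15.8, 14.4 and 16.2 CPM in CD11cpos libraries, against 0.828, 0.978 and 1.02 CPM in CD11cneg libraries. The groups lay far apart, with a step of 4.00 ± 0.35 (adjusted p = 5.9e-09), and Atp6v0d2 had no read in the Egr2KO CD229neg and baseline libraries.

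Stra6l, which encodes a receptor for retinol-binding protein, had 47.7, 36.9 and 47.0 CPM in CD11cpos libraries, against 3.81, 3.70 and 3.25 CPM in CD11cneg libraries. The CD11cpos values lay far above the CD11cneg ones, a step of 3.62 ± 0.27 (adjusted p = 4.69e-10). Postn, which encodes the matricellular protein periostin, had 236, 217 and 225 CPM in CD11cpos libraries, against 17.2, 17.3 and 23.1 CPM in CD11cneg libraries. The replicates of each gate were close together, and the step of 3.54 ± 0.16 had the smallest adjusted p of all genes, 2.84e-14. In Egr2KO CD229neg libraries Postn was at 13.8 ± 3.16 CPM (SD, n = 3), so the CD11cneg level was near that of cells without CD229, a pair not tested against each other. Myof, the membrane-repair ferlin myoferlin, had 97.1, 78.5 and 93.7 CPM in CD11cpos libraries, against 6.62, 8.81 and 10.3 CPM in CD11cneg libraries, again with no overlap (3.36 ± 0.23). Slamf7, a SLAM family receptor like CD229, had 28.8, 24.7 and 27.1 CPM in CD11cpos libraries, against 3.64, 3.26 and 3.35 CPM in CD11cneg libraries. It rose by 2.98 ± 0.23 (adjusted p = 6.73e-10), with the CD11cpos libraries within a narrow range.

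The other large rises named by the rule included secreted and matrix proteins, a channel and a ubiquitin ligase. Mamdc2, a secreted proteoglycan, had a step of 2.63 ± 0.25, and Hmcn2, the matrix protein hemicentin 2, one of 2.50 ± 0.47. Dkk2, a secreted modulator of Wnt signaling, was at 30.3, 21.3 and 26.4 CPM in CD11cpos libraries, against 3.15, 6.52 and 4.27 CPM in CD11cneg libraries. It rose by 2.44 ± 0.28 without overlap of the groups. Mcoln2, an endolysosomal cation channel, rose by 2.28 ± 0.35, Rnf186, an E3 ubiquitin ligase, by 2.45 ± 0.44, and Creg2, a secreted glycoprotein, by 2.27 ± 0.25. Astrocyte markers in sum were at 125.7 to 130.7 CPM in CD11cpos libraries and at 122.8 to 136.4 CPM in CD11cneg libraries, although Gfap alone had 9.87 ± 2.64 CPM and 2.18 ± 0.404 CPM (SD, n = 3 each). Klrb1a, a C-type lectin of natural killer cells, rose by 2.64 ± 0.41 (adjusted p = 4.06e-05), and the related Klrb1b and Klrb1c, which could share reads with it, stepped by 1.43 and 2.60. Markers of T and natural killer cells, Klrb1c among them, summed to 3.48 to 3.83 CPM in CD11cpos libraries and to 0.166 to 1.52 CPM in CD11cneg libraries, and their part in the rise was not tested. All 14 genes had their highest mean of the 4 Egr2KO groups in the CD11cpos cells.

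**Figure D1:**
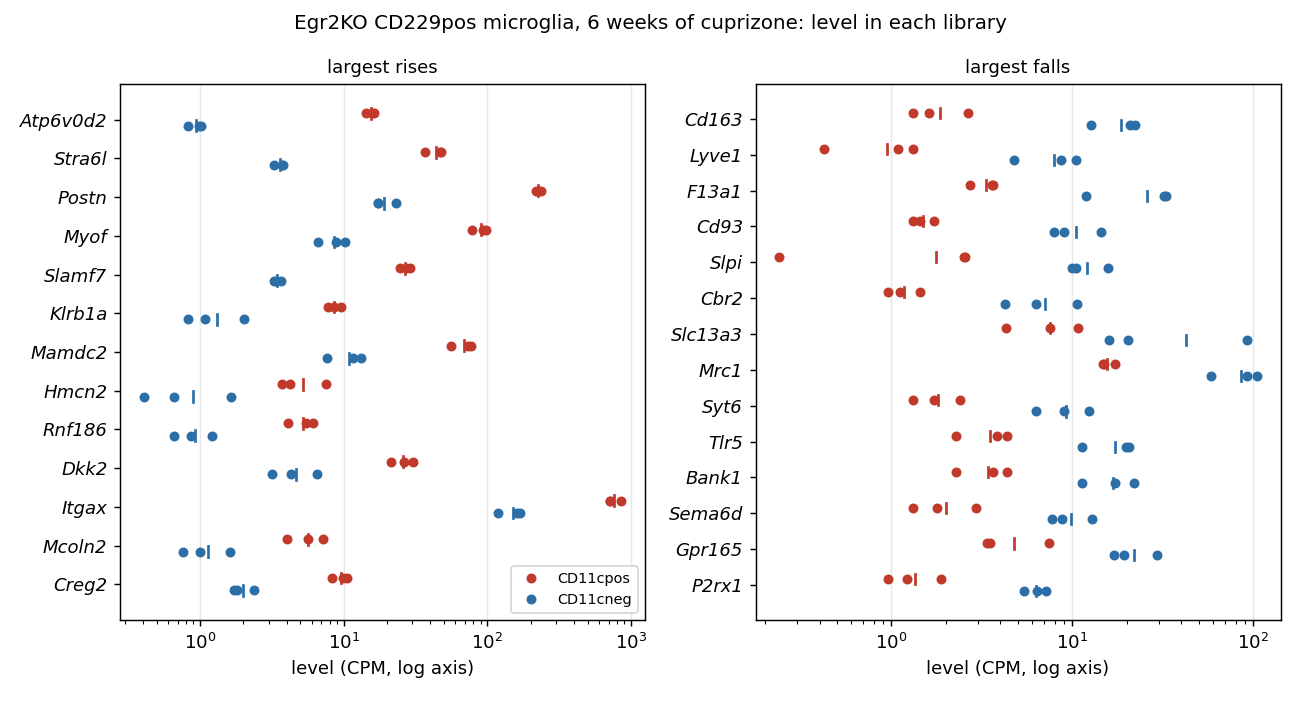
CPM on a log10 axis in each Egr2KO library for the largest rises and falls of the CD11c step that are named in the text, with CD11cpos and CD11cneg libraries in separate colours. No gene shown has overlapping groups, which the naming rule required, and the CD11cneg points of Slc13a3 are spread from 15.9 to 92.2 CPM.

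Among the 14 largest falls, 5 were genes of border-associated macrophages, the macrophages of meninges and vessels. Cd163, the haemoglobin scavenger receptor, had 1.32, 1.62 and 2.64 CPM in CD11cpos libraries, against 22.2, 12.7 and 20.8 CPM in CD11cneg libraries. The step was -3.26 ± 0.83, with no overlap (adjusted p = 0.00468). Mrc1, the mannose receptor, had 17.2, 15.0 and 14.7 CPM in CD11cpos libraries, against 104, 58.6 and 92.5 CPM in CD11cneg libraries. Its CD11cneg libraries all exceeded its CD11cpos libraries, with a step of -2.44 ± 0.55. Lyve1, a hyaluronan receptor, had a step of -3.09 ± 0.97 (adjusted p = 0.0198), F13a1, the A chain of coagulation factor XIII, one of -2.93 ± 0.75, and Cbr2, a carbonyl reductase, one of -2.51 ± 0.69. The call was lost for Lyve1 without CD11cpos replicate 1, CD11cpos replicate 3, CD11cneg replicate 1 or CD11cneg replicate 3 (adjusted p 0.0558 to 0.106), and for Cbr2 in PE150 libraries alone and without CD11cpos replicate 1 or CD11cneg replicate 1 (0.0505 to 0.0726). Over the whole marker list of border macrophages, 6 of 8 fell, with a median of -2.48, and none was at 0. The list summed to 44.5, 40.1 and 45.7 CPM in CD11cpos libraries, against 208, 123 and 191 CPM in CD11cneg libraries. Whether border macrophages in the CD11cneg gate account for any of the 824 falls was not tested.

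The remaining large falls were of genes outside the border macrophage marker list, and whether such cells account for any of them was not tested. Tlr5, the receptor for bacterial flagellin, had 2.28, 4.35 and 3.83 CPM in CD11cpos libraries, against 19.7, 11.3 and 20.5 CPM in CD11cneg libraries. The groups did not overlap, and the step was -2.26 ± 0.29 (adjusted p = 2.2e-06). Bank1, an adaptor known from B cells, had 2.28, 4.35 and 3.66 CPM in CD11cpos libraries, against 22.0, 11.3 and 17.3 CPM in CD11cneg libraries, a step of -2.24 ± 0.30. Gpr165, an orphan receptor of the G-protein-coupled class, had 3.36, 7.38 and 3.49 CPM in CD11cpos libraries, against 29.5, 17.1 and 19.4 CPM in CD11cneg libraries, a step of -2.17 ± 0.34. Sema6d, a transmembrane semaphorin, fell likewise (-2.22 ± 0.45), as did P2rx1, an ATP-gated channel (-2.15 ± 0.30). B cell markers summed to 11.2 to 14.2 CPM in CD11cpos libraries and to 11.9 to 18.3 CPM in CD11cneg libraries. Slc13a3, a dicarboxylate transporter, had 4.32, 7.48 and 10.7 CPM in CD11cpos libraries, against 20.2, 15.9 and 92.2 CPM in CD11cneg libraries. Its CD11cneg mean rests largely on replicate 3, though all 3 stood above the CD11cpos libraries. Cd93, a lectin-like receptor (-2.76 ± 0.75), Slpi, a protease inhibitor (-2.70 ± 0.47), and Syt6, a synaptotagmin (-2.34 ± 0.32), completed the 14.

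The falls came in different orders over the sorted populations. For 8 of the 14 (Cd163, Lyve1, F13a1, Cd93, Slpi, Cbr2, Mrc1 and Syt6) the CD229pos CD11cneg cells had the highest mean of the 4 Egr2KO groups. For Tlr5, Bank1, Sema6d and Gpr165 the baseline cells did. Tlr5 averaged 3.48 ± 1.08 CPM in CD229pos CD11cpos cells, 17.2 ± 5.11 CPM in CD229pos CD11cneg cells and 59.0 ± 4.10 CPM in CD229neg cells (SD, n = 3 each), and was at 77.6 and 90.1 CPM at baseline. Gpr165 averaged 4.74 ± 2.29 CPM, 22.0 ± 6.59 CPM and 104 ± 19.5 CPM in the same 3 gates and had 156 and 176 CPM at baseline. Both genes thus stood lowest in CD229pos CD11cpos cells, with CD229pos CD11cneg cells next. These orders are a description, since only the CD11c step was tested.

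**Figure D2:**
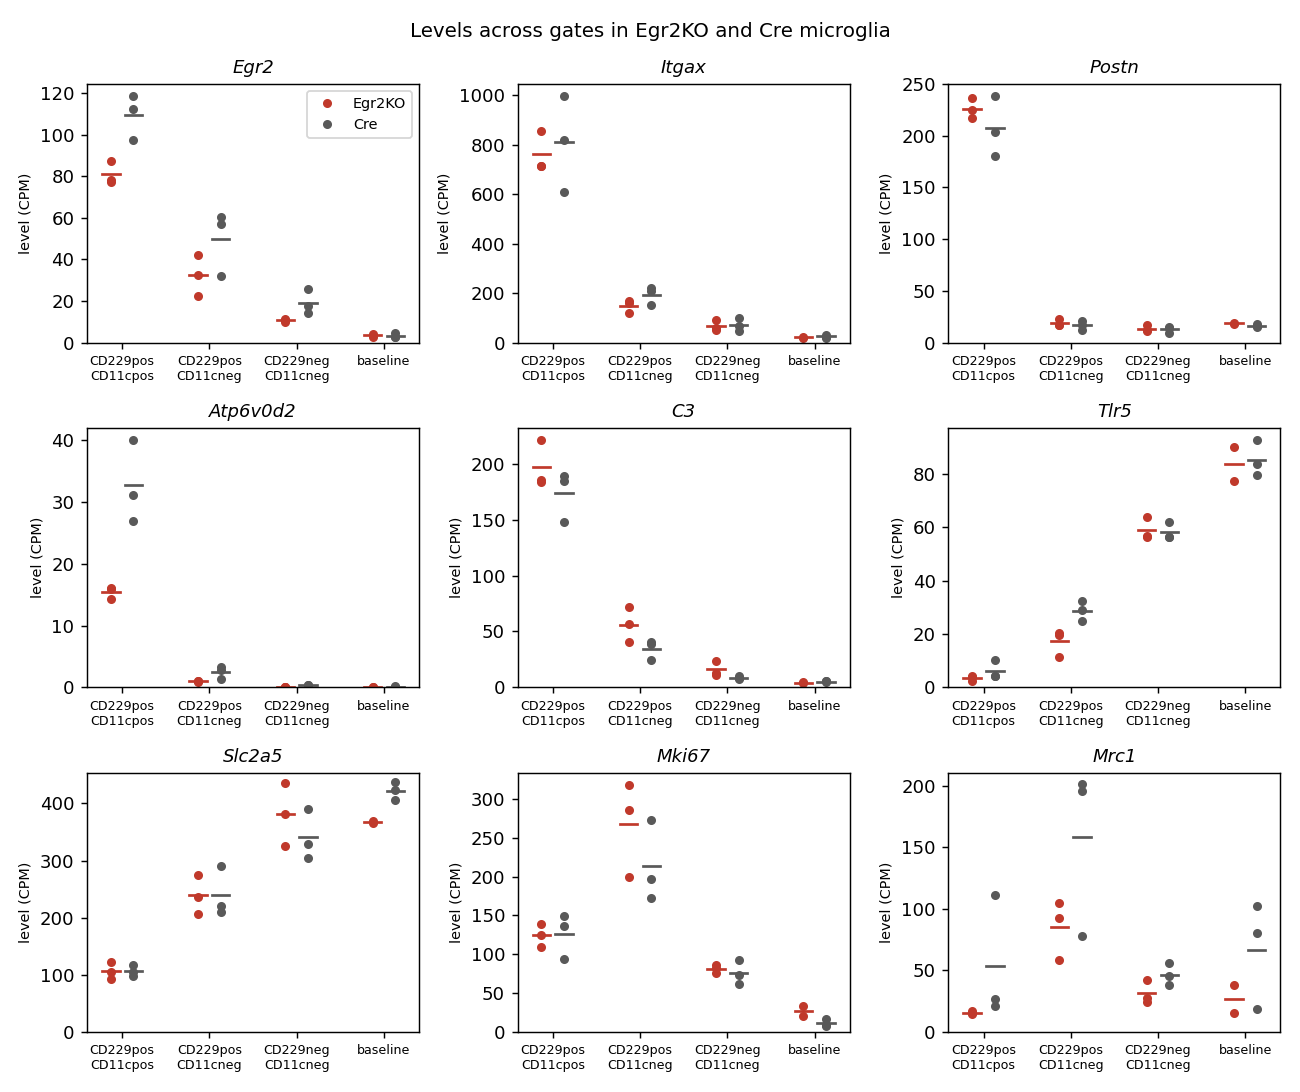
CPM of 9 genes in each library of the CD229pos CD11cpos, CD229pos CD11cneg and CD229neg gates and of baseline cells, for Egr2KO and Cre mice. Postn and Atp6v0d2 are high in the CD229pos CD11cpos gate, and Mrc1 has its highest mean in the CD229pos CD11cneg gate of both genotypes.

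The promoters of 6 named genes, 3 that rose and 3 that fell, are shown for their matches to searched patterns. These are motifs of EGR factors, the family of the targeted gene, and of AP-1, and a loose pattern for MEF2. AP-1 and MEF2 factors act in macrophages among many other cells. The windows run from 250 bases before to 50 after the annotated start, on GRCm38.p6 as given by RefSeq, 5′ to 3′ on the gene's strand. Capitals mark matches: GCGNGGGCG for EGR factors, TGANTCA for AP-1, CACGTG for E-box factors and GAGGAAGT for PU.1, searched on both strands. For MEF2 the loose pattern was CTA and TAG with any 4 bases between them, not only A or T. The Itgax window (chr7:128129300-128129599, plus strand) holds an AP-1 match at -56 to -50, and the Hmcn2 window (chr2:31314082-31314381, plus strand) an EGR match at -250 to -242 and an AP-1 match at -101 to -95. The Rnf186 window (chr4:138966869-138967168, plus strand) holds an AP-1 match at -127 to -121. The Bank1 window (chr3:136326017-136326316, minus strand) holds a match to the loose MEF2 pattern at -45 to -36, with ACCC between CTA and TAG. The Slc13a3 window (chr2:165473148-165473447, minus strand) holds an EGR match at -133 to -125 and an E-box match at -154 to -149, and the Syt6 window (chr3:103575876-103576175, plus strand) an AP-1 match at 10 to 16. Positions are counted from the start site.
Itgax: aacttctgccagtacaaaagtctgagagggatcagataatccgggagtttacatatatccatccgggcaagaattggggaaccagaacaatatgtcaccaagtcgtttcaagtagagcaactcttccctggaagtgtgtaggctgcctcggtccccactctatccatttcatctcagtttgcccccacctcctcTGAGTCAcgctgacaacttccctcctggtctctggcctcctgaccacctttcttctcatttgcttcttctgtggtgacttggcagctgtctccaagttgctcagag
Hmcn2: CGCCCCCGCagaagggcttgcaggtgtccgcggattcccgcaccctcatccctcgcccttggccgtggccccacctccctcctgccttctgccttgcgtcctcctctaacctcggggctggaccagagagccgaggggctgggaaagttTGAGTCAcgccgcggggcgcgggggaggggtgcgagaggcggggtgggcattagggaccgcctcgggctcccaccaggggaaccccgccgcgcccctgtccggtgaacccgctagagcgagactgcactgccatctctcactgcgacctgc
Rnf186: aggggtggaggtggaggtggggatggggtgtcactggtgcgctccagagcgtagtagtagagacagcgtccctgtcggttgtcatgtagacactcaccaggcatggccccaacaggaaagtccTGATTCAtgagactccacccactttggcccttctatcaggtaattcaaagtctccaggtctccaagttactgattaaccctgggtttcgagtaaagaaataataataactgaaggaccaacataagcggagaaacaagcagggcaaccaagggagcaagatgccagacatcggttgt
Bank1: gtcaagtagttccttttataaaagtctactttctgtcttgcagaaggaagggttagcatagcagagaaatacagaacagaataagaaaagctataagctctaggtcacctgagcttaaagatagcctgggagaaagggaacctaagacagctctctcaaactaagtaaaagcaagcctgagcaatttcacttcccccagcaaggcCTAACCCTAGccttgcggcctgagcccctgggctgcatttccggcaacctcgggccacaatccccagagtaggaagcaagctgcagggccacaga
Slc13a3: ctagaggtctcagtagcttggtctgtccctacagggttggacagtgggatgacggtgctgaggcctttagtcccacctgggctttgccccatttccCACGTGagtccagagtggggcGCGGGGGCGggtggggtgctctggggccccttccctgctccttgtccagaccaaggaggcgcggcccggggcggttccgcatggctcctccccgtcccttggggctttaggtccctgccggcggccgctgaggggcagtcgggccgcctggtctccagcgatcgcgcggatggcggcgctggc
Syt6: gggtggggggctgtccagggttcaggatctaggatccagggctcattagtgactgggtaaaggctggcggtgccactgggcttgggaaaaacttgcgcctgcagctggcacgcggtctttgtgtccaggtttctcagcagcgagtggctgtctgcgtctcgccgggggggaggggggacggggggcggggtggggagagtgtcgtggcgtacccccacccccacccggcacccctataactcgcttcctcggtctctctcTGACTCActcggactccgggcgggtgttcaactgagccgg
Of the 28 named rises and falls, 20 had a window in the RefSeq table. Postn, Stra6l and Myof had a window with no match to any of the 5 motifs. F13a1 had a PU.1 match and Slpi an E-box match. Over 9974 promoters of tested genes, the EGR match stood in 10.7%, against 13.7% of the windows of 532 genes that rose and 12.1% of those of 601 genes that fell. AP-1 matches stood in 6.2% of windows of genes that rose, 5.49% of those that fell and 4.77% of all. PU.1 matches stood in 4.89% of windows of genes that rose, 4.99% of those that fell and 3.41% of all. Matches to the loose MEF2 pattern stood in 2.07%, 3.33% and 3.02% of the same 3 sets, and E-box matches in 10.2%, 9.15% and 10.4%. These shares were not tested. A match is a description of these letters and not a binding site.

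Counts over gene lists in the Egr2KO step are to be read against the 5.44% of all tested genes that rose and the 6.25% that fell. No list was tested as a set. Genes of resting microglia were among the falls. Of 20 homeostatic genes tested 8 fell and none rose, with a median of -0.43. Slc2a5, the fructose transporter of microglia, had 92.1, 123 and 105 CPM in CD11cpos libraries, against 275, 237 and 206 CPM in CD11cneg libraries. It fell, with a step of -1.16 ± 0.13 and no overlap. P2ry12, the ADP receptor that steers microglial processes, had 569, 522 and 457 CPM in CD11cpos libraries, against 1305, 857 and 815 CPM in CD11cneg libraries (-0.94 ± 0.20, adjusted p = 0.00185). Upk1b (-1.21 ± 0.17), Crybb1 (-1.18 ± 0.18) and Tmem119 (-0.86) also fell. In contrast Csf1r, a receptor that microglia need to survive and also of the list, had a step of -0.20 and did not pass. Without CD11cneg replicate 1 the list had 5 falls.

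Of 24 disease-associated microglial genes 9 rose and none fell, with a median of 0.40. Lgals3, a galectin of phagocytes, had 181, 140.2 and 152 CPM in CD11cpos libraries, against 62.3, 59.6 and 57.1 CPM in CD11cneg libraries (1.40 ± 0.16). Gpnmb, a lysosome-linked glycoprotein, had 284, 239 and 269 CPM in CD11cpos libraries, against 78.8, 134 and 126 CPM in CD11cneg libraries, a step of 1.21 ± 0.23. Both sets of libraries were separate in each gene. Fabp5, a fatty acid carrier, rose by 1.05 ± 0.20, Apoe, the main lipid carrier of the brain, by 0.85, Spp1, which encodes osteopontin, by 0.75, and Clec7a, the receptor dectin-1, by 0.67. Cst7, Cd68 and Cd9, all widely used markers of that state, had steps of 0.02, 0.05 and 0.08 that did not pass.

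Lipid genes moved in part. Among 5 apolipoprotein genes tested 3 rose and 1 fell. Apoc4, Apoc1 and Apoc2, which lie in the Apoe cluster, rose by 1.54 ± 0.21, 1.34 ± 0.24 and 1.05 ± 0.21. Apob, the structural protein of very-low-density lipoproteins, fell instead: it had 0.24, 1.01 and 0.595 CPM in CD11cpos libraries, against 3.15, 2.83 and 3.96 CPM in CD11cneg libraries (-2.38 ± 0.42, adjusted p = 0.000149). All 6 values lay below 4 CPM, and the groups did not overlap. Of 15 sterol efflux and lipid storage genes 6 rose and none fell, among them Nceh1, a cholesterol ester hydrolase (0.70 ± 0.13), and the lipid droplet coats Plin3 (0.60 ± 0.10) and Plin2 (0.58 ± 0.11). Without CD11cpos replicate 3, CD11cneg replicate 1 or CD11cneg replicate 3, 3 of the 15 rose. The efflux pumps Abca1 (0.10) and Abcg1 (0.25) did not pass. Of 18 sterol synthesis genes 1, Dhcr7, a last enzyme of cholesterol synthesis, rose (0.31 ± 0.10, adjusted p = 0.0459), a call lost in 9 of 15 other settings, RLE scaling and DESeq2 among them.

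Complement and oxidase genes supplied a few large changes. C3, the central complement component, had 185, 184 and 221 CPM in CD11cpos libraries, against 40.2, 56.3 and 71.6 CPM in CD11cneg libraries. The CD11cpos libraries were all above the CD11cneg libraries (1.80 ± 0.18, adjusted p = 1.77e-07), whereas C1qa, C1qb and C1qc had steps of 0.13, 0.10 and 0.05 that did not pass. In the 16 complement and Fc receptor genes, C3 was the 1 that rose and C5ar2 the 1 that fell (-0.38), a call lost in PE150 libraries alone and without CD11cpos replicate 1, CD11cpos replicate 2 or CD11cneg replicate 1. Cybb, the catalytic subunit of the phagocyte NADPH oxidase, had 314, 272 and 297 CPM in CD11cpos libraries, against 86.6, 77.9 and 97.1 CPM in CD11cneg libraries (1.75 ± 0.26). Its partner Cyba (0.22) and the cytosolic subunits Ncf1 and Ncf4 did not pass. Srxn1, sulfiredoxin (1.06), Slc7a11, the cystine transporter (0.89), and Txnrd1, thioredoxin reductase (0.30), rose too, and Gclc, which makes glutathione, fell (-0.34), which made 4 rises and 1 fall among 12 genes.

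Antigen presentation genes rose in small number. Of 8 MHC class II genes 3 rose, Cd74, H2-Aa and H2-Ab1, and the list had a median of 1.01. Cd74, the invariant chain, had 442, 344 and 379.7 CPM in CD11cpos libraries, against 155, 155 and 148 CPM in CD11cneg libraries (1.35 ± 0.34, adjusted p = 0.00901). The CD11cpos libraries were more than 2 times every CD11cneg library. H2-Aa and H2-Ab1 rose by 1.38 ± 0.41 and 1.05 ± 0.34, calls that ended under DESeq2 (adjusted p 0.127 and 0.188) and in PE150 libraries alone. With either setting, and without any 1 library other than CD11cpos replicate 2, the list had 1 rise. Dendritic cell markers summed to 257 to 308 CPM in CD11cpos libraries and to 314 to 337 CPM in CD11cneg libraries, and none was at 0, and their part in these rises was not tested. Of 12 MHC class I genes 3 rose, H2-Q7 (0.96), H2-Q4 (0.49) and the regulator Nlrc5 (0.43), and the first pair have close paralogs that can share reads. Nlrc5 lost its call without CD11cpos replicate 3, CD11cneg replicate 1 or CD11cneg replicate 2. Among 25 type I interferon genes 1 rose, Usp18 (0.37 ± 0.10), and the median was 0.07. The call of Usp18 was lost without CD11cpos replicate 3 or CD11cneg replicate 2.

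Most cell cycle genes were lower in CD11cpos cells. Of 25 tested 16 fell and none rose, with a median of -0.74. Mki67, the proliferation antigen Ki-67, had 109, 139.6 and 125 CPM in CD11cpos libraries, against 199.7, 287 and 319 CPM in CD11cneg libraries. No library of one gate overlapped the other (-1.11 ± 0.20, adjusted p = 0.000566). Top2a, a topoisomerase of dividing cells, Kif11, a mitotic kinesin, and Ccna2, cyclin A, fell with steps of -1.05 ± 0.24, -1.04 ± 0.24 and -0.90 ± 0.17. Replication genes of the same list had smaller steps, such as Mcm5 (-0.44), which fell, and Pcna (0.08), which did not pass. With library totals in place of TMM the number that fell was 9. It was 6 without CD11cpos replicate 1, 7 without CD11cpos replicate 3, and 8 without either CD11cneg replicate 2 or CD11cneg replicate 3.

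Matrix genes were split between a few large rises and no change past the test. Of 15 tested 5 rose and none fell, Postn, Mmp12, Mmp14, Plau and Adam8, while the median was 0.07. Mmp12, macrophage elastase, had 60.9, 45.8 and 48.4 CPM in CD11cpos libraries, against 8.78, 12.5 and 12.3 CPM in CD11cneg libraries (2.18 ± 0.26). The lowest CD11cpos library stood more than 3 times above the highest CD11cneg library. Mmp14, a membrane-bound collagenase, rose by 0.71 ± 0.08, and Plau, urokinase, by 0.69 ± 0.10. Lysosomal genes showed the same split, since 3 of 22 rose, Atp6v0d2, Gla and Atp6v1a, and the median was 0.04. Cathepsins Ctsb (0.05), Ctsd (-0.03) and Ctss (0.05) did not pass.

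Surface receptors went both ways. Of 14 integrin subunits other than CD11c 3 rose and 3 fell. Itgal, which is CD11a, rose by 1.12 ± 0.21, Itgb8, which activates TGF-beta, by 1.14 and Itga5, the fibronectin receptor subunit, by 0.48 ± 0.08, whereas Itga9 (-0.82 ± 0.12), Itgb3 (-0.44 ± 0.08) and Itgav (-0.30) fell. Itgb2, the beta chain that pairs with CD11c, had a step of 0.02 and did not pass. Of 9 SLAM family genes 3 rose, Slamf7, Slamf8 (0.88 ± 0.10) and Cd48 (0.53 ± 0.11). Of 10 C-type lectin receptors 3 fell, Clec4a1 (-1.31 ± 0.35), Clec4a2 (-0.50 ± 0.11) and Mrc2 (-0.43 ± 0.12), and none rose. Clec4a1 lost its call in 4 of 15 other settings and Mrc2 in 2.

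Secreted mediators went in both directions. Their small counts are to be read against the 5.44% of all tested genes that rose and the 6.25% that fell. Il1b, which encodes interleukin-1 beta, had 66.1, 49.9 and 53.3 CPM in CD11cpos libraries, against 24.0, 25.8 and 28.8 CPM in CD11cneg libraries (1.10 ± 0.19). It rose without overlap, and Tnfaip3, a brake on NF-kB, rose by 0.31, while Il6 (-1.09) and Il1a (-0.45) fell, so that 2 of 14 cytokine genes rose and 2 fell. Il6 lost its call in 2 of 15 other settings and Il1a in 4. Tnf (-0.15) and Ccl2 (-0.58) did not pass. Of 15 growth factors 2 rose, Tgfb2, a TGF-beta ligand (1.14 ± 0.32), and Pdgfa, a mitogen of oligodendrocyte precursors (0.41 ± 0.08). The call of Tgfb2 was lost in PE150 libraries alone and without CD11cpos replicate 1, CD11cpos replicate 3 or CD11cneg replicate 1. Of 10 TGF-beta signaling genes 1 rose, Tgif1 (0.42), and 1 fell, Smad3 (-0.41). Of 13 TREM2-DAP12 pathway genes none rose and 2 fell, Pik3cg (-0.40) and Trem1 (-1.69). Trem1 was at 0.6 ± 0.182 CPM and 1.90 ± 0.877 CPM in CD11cpos and CD11cneg libraries (SD, n = 3 each), and its call was lost in 6 of the 11 other settings that tested it, among them DESeq2, no filter and each CD11cpos library left out. That of Pik3cg was lost in PE150 libraries alone and without CD11cpos replicate 1, and Trem2 itself had a step of 0.20 that did not pass.

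Counts here, of transcription factor genes and others, are to be read by direction. Of all tested genes 5.44% rose and 6.25% fell. Among 5 EGR and NAB genes 2 rose, Egr2 and Nab2, a corepressor that EGR proteins bind (0.33 ± 0.09). Nab2 lost its call in PE150 libraries alone and without CD11cpos replicate 1 or CD11cneg replicate 3. Egr1 (-0.13 ± 0.56) and Nab1 (-0.08) did not pass. Bhlhe40, a helix-loop-helix repressor, had 172, 155 and 172 CPM in CD11cpos libraries, against 57.3, 87.8 and 96.6 CPM in CD11cneg libraries and rose by 1.03 ± 0.18 with no overlap. It was the 1 rise among 16 lineage factors, of which Maf (-0.59), Irf4 (-0.69) and Etv5 (-0.41) fell and Spi1 (0.02) did not pass. Without CD11cpos replicate 1 or CD11cneg replicate 1, 1 of the 16 fell. Maf lost its call in 3 of 15 other settings, Irf4 in 4 and Etv5 in 2. Mitf (0.48 ± 0.09) rose among 4 MiT/TFE factors, Batf3 (0.43) among 10 AP-1 and MAF factors and Atf3 (0.86) among 14 immediate early genes. The call was lost in 6 of 15 other settings for Batf3 (PE150 libraries alone, compared libraries alone and each of CD11cpos replicates 1 and 3 and CD11cneg replicates 2 and 3 left out), and in 3 for Atf3 (PE150 libraries alone, without CD11cpos replicate 1 and without CD11cneg replicate 3). Of 15 Polycomb and H3K27 demethylase genes 2 fell, Kdm6b (-0.55 ± 0.11) and Phf19 (-1.35 ± 0.30). In iron and copper handling 3 of 14 rose, Hmox1 (0.60), Slc11a1 and Slc11a2, and the iron exporter Slc40a1 fell (-0.63), with 1 rise without CD11cpos replicate 3. Of 15 glycolysis genes 1 rose, the glucose transporter Slc2a1 (0.46 ± 0.09).

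**Figure D3:**
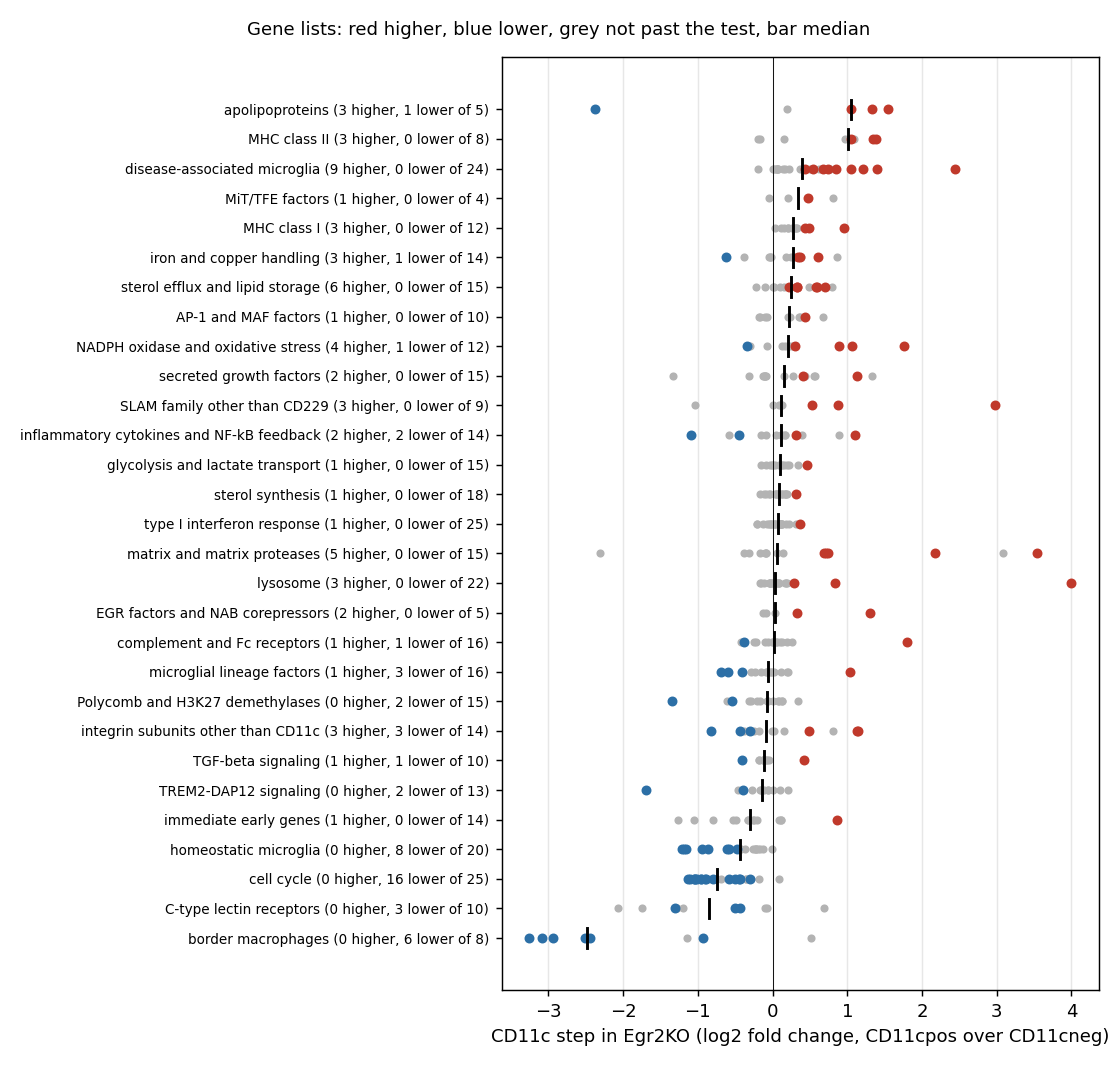
Log2 fold change of CD11cpos over CD11cneg for each tested member of the 28 gene lists and of the border macrophage markers in Egr2KO microglia. Red points rose, blue points fell, grey points did not pass, and bars mark list medians. Cell cycle genes lie mostly below 0 (median -0.74), and the median over all tested genes was -0.0034.

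In Cre microglia the same step called 2264 genes, 17.2% of those tested, with 1139 rises (8.64%) and 1125 falls (8.53%). The 2 steps rest on separate libraries. Both called 1155 genes, all in the same direction, which was 75.0% of the Egr2KO calls and 51.0% of the Cre calls. Of the 1541 Egr2KO calls 1528 had the same sign in Cre, against 77.4% of all tested genes. Over all tested genes the 2 steps had a Pearson r of 0.70 and a Spearman rho of 0.68, and over the 10933 genes of at least 5 CPM in a group r was 0.87, correlations across genes that are not independent of each other. Of the 363 Egr2KO calls that were at least 2-fold, 360 had the same sign in Cre and 285 also passed there. The exceptions were Awat2 (2.30 in Egr2KO and -0.77 in Cre), Fap (2.01 and -0.38) and Trem1 (-1.69 and 0.03), named after their values were seen. None of their Cre steps passed. In Egr2KO CD11cpos and CD11cneg libraries Awat2 averaged 1.03 and 0.195 CPM and Fap 0.987 and 0.229 CPM, so these steps rest on few reads.

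The difference of the steps, Egr2KO minus Cre, was tested in the same fit. No gene passed (0% of 13187, edgeR's quasi-likelihood test), 405 had an unadjusted p under 0.05, and DESeq2 also called 0. Without a filter on low counts edgeR called 10. For 10257 of the 10933 genes of at least 5 CPM (93.8%) the 95% interval of the difference lay within 1 log2 unit of 0, so differences above 2-fold fell outside the interval for those genes. Postn had a step of 3.54 ± 0.16 in Egr2KO and 3.58 ± 0.15 in Cre, with an interval of the difference of -0.49 to 0.41. Atp6v0d2 stepped by 4.00 and 3.66, with -0.55 to 1.22, although its levels differed: it averaged 15.5 ± 0.959 CPM and 0.941 ± 0.0998 CPM in Egr2KO CD11cpos and CD11cneg libraries, and 32.7 ± 6.65 CPM and 2.48 ± 1.05 CPM in the Cre ones (SD, n = 3 each). C3 stepped by 1.80 and 2.32 (-1.04 to 0.00), and Tgfb2 by 1.14 and 2.46 (-2.37 to -0.29).

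**Figure D4:**
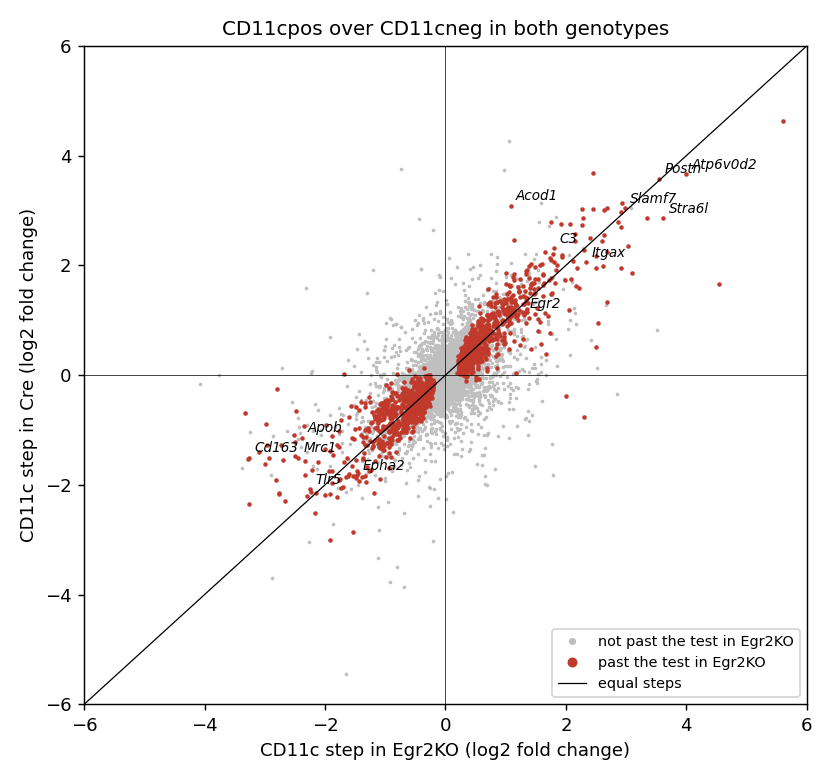
Log2 fold change of the CD11c step in Egr2KO against that in Cre microglia for all tested genes, coloured by whether they passed the test in Egr2KO. Of the 1541 genes that passed in Egr2KO, 1528 had the same sign in Cre, and 1 gene falls beyond the axes.

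Given here by the naming rule are genes of at least 5 CPM with the smallest unadjusted p for the difference. None passed the threshold. Acod1, which makes itaconate in activated macrophages, averaged 8.98 ± 3.73 CPM and 4.20 ± 1.82 CPM in Egr2KO CD11cpos and CD11cneg libraries, and 7.58 ± 0.752 CPM and 0.872 ± 0.213 CPM in the Cre ones (SD, n = 3 each). Its difference was -2.01, with an interval of -3.08 to -0.94 and an unadjusted p of 0.00052. The estimated steps were 1.08 in Egr2KO and 3.09 in Cre. Ctse, which encodes cathepsin E, averaged 57.2 ± 3.81 CPM and 42.0 ± 2.78 CPM in Egr2KO CD11cpos and CD11cneg libraries, and 56.3 ± 8.96 CPM and 24.0 ± 8.25 CPM in the Cre ones (SD, n = 3 each), with steps of 0.44 and 1.22 and a difference of -0.77. Aarsd1, an alanyl-tRNA editing protein, stepped by -0.17 in Egr2KO and 0.52 in Cre, of opposite sign (-0.68). The 4 genes with a positive difference had steps near 0 in Egr2KO and negative steps in Cre. Prdm9, a meiotic histone methyltransferase, had 22.0, 19.5 and 21.8 CPM in CD11cpos libraries, against 22.0, 21.7 and 22.1 CPM in CD11cneg libraries of Egr2KO mice. In Cre mice it had 20.8, 18.3 and 21.0 CPM in CD11cpos libraries, against 31.5, 29.6 and 28.6 CPM in CD11cneg libraries. Its steps were -0.06 in Egr2KO and -0.57 in Cre, with a difference of 0.52 (0.26 to 0.78). Slamf1, a SLAM receptor, stepped by 0.09 in Egr2KO and -0.98 in Cre, Gimap1, a GTPase of lymphocytes, by -0.04 and -1.28, and Mxd1, a partner of MAX, by -0.03 and -0.50. Their differences were 1.07, 1.24 and 0.47.

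Some lists had different counts in the 2 genotypes, and these counts do not show that the steps differed. Over all tested genes 5.44% rose and 6.25% fell in Egr2KO, against 8.64% and 8.53% in Cre, and list counts are to be read against these shares. Disease-associated genes rose in 9 of 24 in Egr2KO and in 20 of 24 in Cre, with medians of 0.40 and 0.83, and 6 of the 24 had an unadjusted p under 0.05 for the difference. Over all genes, 405 of 13187 had such a p. Interferon genes rose in 1 of 25 in Egr2KO and 10 of 25 in Cre, with medians of 0.07 and 0.29 and such a p in 7 of 25. Glycolysis genes rose in 1 of 15 in Egr2KO and 11 of 15 in Cre, with medians of 0.10 and 0.39 and such a p in 4 of 15. Cell cycle genes fell in 16 of 25 and 5 of 25, with medians of -0.74 and -0.49, and no member had an unadjusted p under 0.05 for the difference. Homeostatic genes fell in 8 of 20 and 9 of 20, with a median of -0.43 in each. Border macrophage markers fell in 6 of 8 in Egr2KO and 2 of 8 in Cre. Their sum in Cre was 57.0, 68.3 and 229.6 CPM in CD11cpos libraries, against 376, 380 and 149 CPM in CD11cneg libraries, so in replicate 3 the CD11cpos library had the higher sum. Over the 395 pathway genes tested, 29 had an unadjusted p under 0.05 for the difference and none passed the adjusted test. Lpl, a lipoprotein lipase, stepped by 0.36 in Egr2KO and 0.88 in Cre, with an interval of -1.04 to 0.01.

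**Figure D5:**
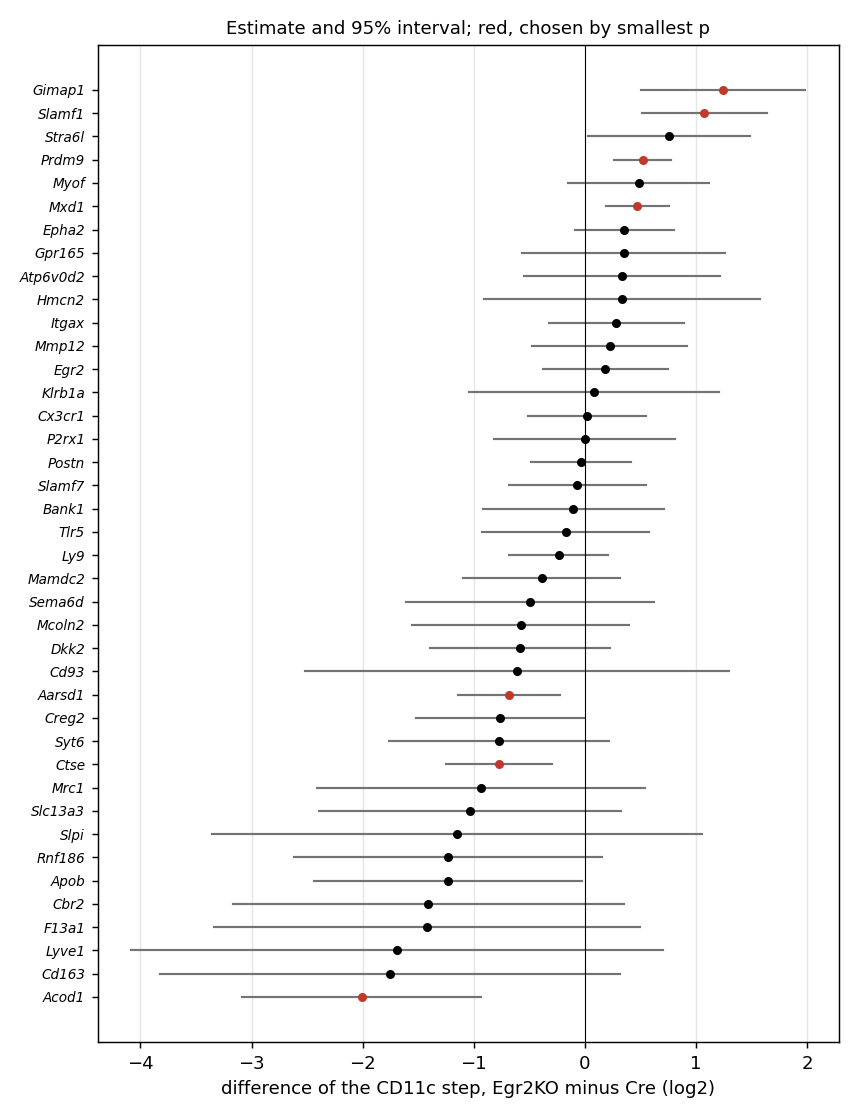
Difference of the CD11c step, Egr2KO minus Cre, on the log2 scale with its 95% interval for named genes. Intervals of the genes drawn in red, those with the smallest unadjusted p under the naming rule, lie off 0 but none passed the adjusted test.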

How the data were processed

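RNA-seq libraries of sorted brain microglia were used as the raw counts per gene that the authors deposited in one table of 23 libraries. Per the submitters' processing notes, fastp 0.20.0, STAR 2.7.0f, HOMER 4.11 and DESeq2 and the build mm10 (GRCm38) were used, with no order or role given. Titles mark dUTP libraries, and whether counting used strand is not given in the sources used here. Reads of near-identical genes, such as H2 class I and Klrb1 genes, may be split between them. In R 4.3.3, edgeR 4.0.16 (filterByExpr, TMM, quasi-likelihood) was fitted on all 23 libraries in 8 groups (15 residual degrees of freedom), which left 13187 of 25124 genes, with p-values adjusted by the Benjamini-Hochberg method. The contrasts were the CD11c step in Egr2KO, in Cre and their difference. The procedure was tested on simulated data. Alternatives were DESeq2 1.42.0, other scalings, no filter, fewer libraries, a replicate block, PE150 as a covariate or alone, and each library left out.

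The named genes are the 14 largest changes in each direction among those past the test with at least 5 CPM in the higher group and no overlap, leaving out predicted genes, small RNAs and chromosome 18. Named as well are the 4 smallest p-values per direction of the difference, among genes of at least 5 CPM in a group and with the same exclusions. So are up to 4 members of each list with the smallest adjusted p and the gate and target genes. Postn, Stra6l, Mmp12, Apob and Epha2 are added, since they lead this step in other libraries of the series. Other list members are examples, and a few genes that these rules pick are not reported here. The comparison, members and lists were chosen with earlier results of these data known, and some lists come from an earlier reading of them. Replicates of a gate differed by more than counting noise.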

Additional observations from a re-analysis of the deposited data

How the results depend on the processing

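The Egr2KO step called 1541 genes. It called 2994 with a replicate block on the compared libraries only, 2368 with a replicate block on all 23, 1013 in PE150 libraries alone, and 947 to 1238 with 1 library left out, lowest without CD11cpos replicate 3. The Cre step called 2264, with 3466 under the block on the compared libraries, 1277 in PE150 libraries alone and 1512 to 2639 with 1 library left out. The difference called 0, with 10 when no filter was used (Flt1, Cxcl14, Efr3b, Cd163, Pianp, Ctse, Rab7b, Acod1, St8sia1 and Acaca) and 0 to 0 with 1 library left out. The cause was not tested. Other settings kept both counts within 1.5 times. None of the 103 named genes past the test in Egr2KO reversed its Egr2KO step. Of 1541 pairs of a called named gene and a setting, 108 lost the call. Among the largest changes, Lyve1 lost it in 4 settings and Cbr2 in 3. Of the others, H2-Ab1 lost it in 8, H2-Aa and Slc11a1 in 7, Nr1h2 in 5, and Irf4, Il1a and Atp6v1a in 4. The fall of cell cycle genes numbered 9 with library totals. Same-numbered Egr2KO libraries deviated together with correlations of 0.15, 0.063 and 0.17, and each correlated best with its own number. This is a hint from the data and not part of the design, so the block stays an alternative. At 6361212 to 11433616 reads a library, steps of genes under 1 CPM rest on few reads.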

Other observations

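Epha2, a receptor tyrosine kinase for ephrins, had 13.8, 24.8 and 20.6 CPM in Egr2KO CD11cpos libraries, against 60.3, 50.4 and 55.2 CPM in CD11cneg libraries. It fell by 1.47 on the log2 scale (SE 0.15), and no CD11cpos library reached the lowest CD11cneg one. Gfap, an astrocyte filament gene picked after its values were seen, rose by 2.17 on the log2 scale (adjusted p = 0.000697 by edgeR's quasi-likelihood test), while the sum of astrocyte markers overlapped between the gates.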
